A study of Drosophila melanogaster with 54 samples.

Results

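Deformed (Dfd) and Sex combs reduced (Scr) are the Hox proteins of neighbouring head segments in Drosophila melanogaster, and their genomic binding was compared here in cells that also received the cofactor Homothorax (Hth). The members are the regions that the deposited lists name as bound by Dfd+Hth or by Scr+Hth at a q-value of 0.01, which number 12050 and 6598. Together they make 18648 of the 69002 regions listed at this threshold for the 8 Hox proteins with Hth, for Hth and for Extradenticle (Exd) with Hth. Each region was put into a class by overlap of at least 1 bp with the list of the other protein. There were 5820 shared Dfd+Hth regions, 6230 Dfd+Hth-only regions and 453 Scr+Hth-only regions, and the 6145 Scr+Hth regions that met a Dfd+Hth region are the same sites counted from the side of Scr.

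Hox proteins are homeodomain transcription factors that give segments along the body axis their identity. Dfd acts in the mandibular and maxillary segments, and Scr acts in the labial segment and the prothorax, where it is needed for the salivary gland and the sex combs. Their homeodomains read closely similar AT-rich sites. Exd, a TALE homeodomain protein of the PBC class, binds DNA together with Hox proteins on joined Exd-Hox sites. Hth, a TALE protein of the Meis class, brings Exd into the nucleus and adds a DNA contact of its own.

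All groups are Kc167 cells, an embryo-derived line with features of haemocytes, the blood cells of the fly. These cells lack Hth and hold Exd in the cytoplasm until Hth is supplied. They were transiently transfected with pMT-Hth-2A-eGFP-Dfd or pMT-Hth-2A-eGFP-Scr, in which the metallothionein promoter drives Hth and, after a 2A peptide, the GFP-tagged Hox protein. Expression was induced with 1 mM CuSO4 for 4 h, and cells were fixed for 10 min with 1% formaldehyde. Sorting kept cells in 1 window of GFP brightness for all constructs, and chromatin was precipitated with anti-GFP. The comparison sets came from the same design: Lab, Pb, Antp, Ubx, AbdA and AbdB with Hth, GFP-tagged Hth alone (pMT-Hth-eGFP), GFP-tagged Exd with Hth (pMT-Hth-2A-eGFP-Exd), and each Hox protein without Hth. Every group has 2 ChIP libraries and 1 input library, in all 36 ChIP and 18 input libraries. The lists hold 1 combined set of regions per group with no height or score, so no replicate error could be given for any value. The 95% Wilson intervals printed below cover the counting of regions only. Per the study's sequencing summary, mapped reads were more numerous in each Dfd+Hth library than in either Scr+Hth library, and the part of depth in the lengths of the lists was not tested. Regions over exons carried on the plasmids were taken out by the authors, so the lists cannot show which Hox protein a cell received.

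Most Scr+Hth regions overlapped a Dfd+Hth region by at least 1 bp. Only 453 of 6598 Scr+Hth regions (6.87%, interval 6.28 to 7.5%) had no Dfd+Hth region, whereas 6230 of 12050 Dfd+Hth regions (51.7%, interval 50.8 to 52.6%) had no Scr+Hth region. When each region was cut to its central 200 bp, the shares without the other protein were 35% for Scr+Hth and 64.4% for Dfd+Hth, so the first value depends on the width of the regions. By base pairs the sets covered 11189 kb (Dfd+Hth) and 6280 kb (Scr+Hth) and had a Jaccard index, the shared length over the length covered by either, of 0.486. This was the fifth highest of the 28 pairs of Hox+Hth sets, which ran from 0.176 for Dfd and Antp to 0.608 for Scr and AbdB. Scr+Hth was therefore closer by this index to AbdB+Hth and to AbdA+Hth (0.571) than to Dfd+Hth, while Dfd+Hth had its highest index with Scr+Hth and nearly the same with AbdB+Hth (0.483).

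At a q-value of 1e-10 the lists held 8953 Dfd+Hth and 3793 Scr+Hth regions. There 5589 Dfd+Hth regions (62.4%) and 269 Scr+Hth regions (7.09%) were without the other protein. A region just under a threshold in 1 list looks like a difference, so a strict class was also made: a region in the 1e-10 list of its protein that met nothing in the 0.01 list of the other. It held 3310 Dfd+Hth-only regions (37.0% of the Dfd+Hth list) and 83 Scr+Hth-only regions (2.19% of the Scr+Hth list). Of the Dfd+Hth-only regions at 0.01, 2926 (47.0%) also met the 1e-10 list of Dfd+Hth, against 76 (16.8%) of the Scr+Hth-only regions in the list of Scr+Hth. When the longer Dfd+Hth list was cut to 1e-10 and the Scr+Hth list kept at 0.01, which was tried after the lengths of the lists were seen, the Scr+Hth share without Dfd+Hth was 18.6% and the Dfd+Hth share without Scr+Hth was 37.0%. The order of both shares was the same in each of these comparisons.

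**Figure D1:**
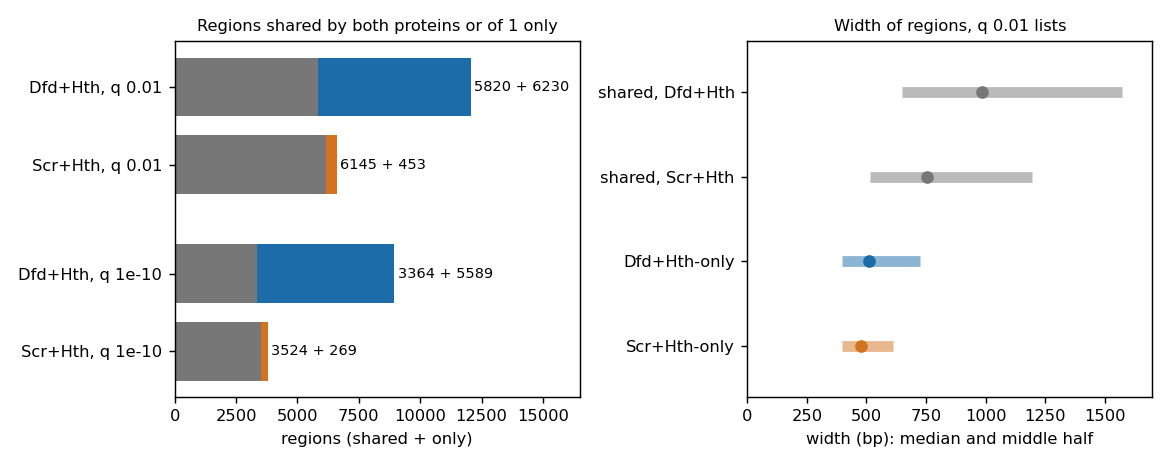
Left, number of regions (horizontal axis) of each list at both thresholds, with shared regions in grey and regions of 1 protein in blue (Dfd+Hth) or orange (Scr+Hth). Right, width in bp of the classes at q 0.01, with the median as a point and the interquartile range as a bar; the medians of the shared regions, 984 and 752 bp, lie above those of both only classes, 510 and 475 bp.

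Shared regions were wider than those of 1 protein. A wider region also meets another by 1 bp more easily, and the part of this class rule in the widths was not tested. The median width of a shared Dfd+Hth region was 984 bp (interquartile range 648 to 1573 bp), that of a shared Scr+Hth region 752 bp, that of a Dfd+Hth-only region 510 bp and that of a Scr+Hth-only region 475 bp. Of the shared regions, 4963 paired with exactly 1 region of the other protein. In these pairs the centres lay a median of 47 bp apart, and 3491 pairs (70.3%) had centres within 100 bp. The Dfd+Hth region was the wider member in 3863 pairs (77.8%), with a median ratio of widths of 1.14. A Dfd+Hth-only region lay a median of 4873.5 bp from the nearest Scr+Hth region, and 1127 of 6230 (18.1%) lay within 1000 bp of it. Scr+Hth-only regions were nearer to the other protein, with a median of 1047 bp to the nearest Dfd+Hth region and 222 of 453 (49%) within 1000 bp. Dfd+Hth is also the longer list, with 12050 regions against 6598, and the part of list length in these distances was not tested.

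Before further counts, the sequences under these regions are shown, since they are what the proteins read. The set is the 3 widest strict regions of each class among those that hold the Exd-Hox site TGATTAAT in the central 200 bp, with 1 chromosome arm not used here. Each run is 100 bases of the dm6 assembly, plus strand, around that site. Capitals mark matches, on either strand, to TGATTAAT, to the Hox core motifs TTAATTA and TTAATGA, or to the GATA-factor motifs AGATAAG and TGATAAG, and neighbouring matches can overlap. In the strict Dfd+Hth-only class 172 regions qualified.
near CG17350, chr2L:19380623-19380722: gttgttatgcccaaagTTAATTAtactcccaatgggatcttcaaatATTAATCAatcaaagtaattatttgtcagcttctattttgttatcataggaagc
in lncRNA:CR44919, chr2L:21867137-21867236: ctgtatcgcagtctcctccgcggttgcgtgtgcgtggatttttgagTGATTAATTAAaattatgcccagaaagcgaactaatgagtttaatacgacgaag
near NKCC, chr3R:5507730-5507829: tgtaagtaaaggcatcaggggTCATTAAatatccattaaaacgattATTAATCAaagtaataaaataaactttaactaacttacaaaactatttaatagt

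All 3 Dfd+Hth-only sequences held a Hox core match beside or joined to the Exd-Hox site, and all 3 regions were also bound by Lab+Hth and Pb+Hth, the third by Antp+Hth as well. The first region (1698 bp) lay 340 bp from a start site, nearest to that of CG17350, the second (1664 bp) lay over an exon of the non-coding gene lncRNA:CR44919, and the third (1419 bp) was intergenic, nearest to NKCC, a gene for a sodium, potassium and chloride cotransporter. None of the 3 met the Hth list. In the strict Scr+Hth-only class only 4 regions qualified, of which these are the 3 widest.
in Rip11, chrX:18640538-18640637: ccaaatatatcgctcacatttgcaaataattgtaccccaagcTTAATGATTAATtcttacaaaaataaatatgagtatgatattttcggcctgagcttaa
near Akt, chr3R:16106000-16106099: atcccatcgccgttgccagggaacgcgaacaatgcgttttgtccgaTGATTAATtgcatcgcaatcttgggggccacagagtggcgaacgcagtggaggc
near CG12078, chr3L:3242867-3242966: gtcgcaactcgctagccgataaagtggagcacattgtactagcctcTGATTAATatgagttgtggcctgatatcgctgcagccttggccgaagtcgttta

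The Rip11 sequence also held a Hox core match, TTAATGA, and the other 2 held none. The Rip11 region (627 bp, intronic) was also bound by Ubx, AbdA and AbdB with Hth, and the CG12078 region (452 bp, intergenic) by Ubx and AbdA with Hth, and both met the Hth and Exd+Hth lists. Neither met Lab+Hth or Pb+Hth. The region nearest to Akt, which encodes a growth-control kinase (477 bp, intergenic), met none of the other sets. Among strict shared regions 77 qualified.
in pes, chr2L:7990543-7990642: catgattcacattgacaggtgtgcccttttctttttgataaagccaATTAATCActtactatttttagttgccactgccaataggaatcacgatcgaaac
near Arr2, chr3L:8661503-8661602: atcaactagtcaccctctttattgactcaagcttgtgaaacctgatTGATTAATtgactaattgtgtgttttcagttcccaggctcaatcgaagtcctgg
in bves, chrX:21072385-21072484: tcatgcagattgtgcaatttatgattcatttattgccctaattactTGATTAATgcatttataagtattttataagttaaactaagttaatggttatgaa

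These shared regions were far wider (3171, 2966 and 2888 bp) and held no Hox core or GATA match in the 100 bases shown. The Arr2 and bves regions met the Hth list, the Exd+Hth list and all 6 other Hox+Hth lists, and the pes region met Exd+Hth and 5 of the 6, all but Antp+Hth. Arr2 encodes an arrestin of the eye and pes a scavenger receptor.

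Over all regions the central 200 bp of the classes differed in Hox core motifs. TTAATTA or TTAATGA was present in 31.6% of Dfd+Hth-only windows (1971 of 6230, interval 30.5 to 32.8%), in 16.3% of shared windows (950 of 5820, interval 15.4 to 17.3%) and in 10.6% of Scr+Hth-only windows (48 of 453, interval 8.09 to 13.8%). As background, windows of the same length 1000 bp to either side that met none of the lists held it in 10.8%, 9.95% and 11.1%. Dfd+Hth-only windows thus exceeded their flanks 2.93 times and shared windows 1.64 times, while Scr+Hth-only windows were at the level of their flanks (ratio 0.95). Windows with 2 or more core matches made up 11.2% of Dfd+Hth-only, 4.73% of shared and 2.87% of Scr+Hth-only windows. A central window covers a smaller part of a shared region, whose median width was 984 bp against 510 and 475 bp. Hox cores were not counted over whole regions, and the part of width in these shares was not tested.

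The Exd-Hox site TGATTAAT was also most frequent in Dfd+Hth-only regions when central windows of 200 bp were counted, while the intervals of the other classes overlapped. It was in 4.85% of Dfd+Hth-only windows (302, interval 4.34 to 5.41%), in 2.59% of shared windows (151, interval 2.22 to 3.04%) and in 2.21% of Scr+Hth-only windows (10, interval 1.2 to 4.02%), against 1.26%, 1.23% and 2.18% of flanks. The difference between the only classes was 2.64 points (interval 0.763 to 3.79), and its interval crossed 0 in the strict classes (1.74 points, interval -5.24 to 4.80). Over whole regions, which differ in width, shared regions held it most often, with 12.7% (interval 11.9 to 13.6%) against 11% of Dfd+Hth-only (interval 10.3 to 11.8%) and 4.42% of Scr+Hth-only regions. Any of 4 Exd-Hox sites (TGATTAAT, TGATTGAT, TGATTTAT, AGATTAAT) was found in 12.1%, 7.29% and 9.71% of windows, against 4.85%, 4.49% and 5.36% of flanks. The intervals of the Scr+Hth-only class (7.32 to 12.8%) and of the Dfd+Hth-only class (11.3 to 12.9%) overlapped for this group of sites. The Hth core TGACAG was in 9.49%, 7.25% and 8.39% of windows, with flanks at 6.63%, 5.41% and 6.75%. TTTATGG, a core form favoured by AbdB, was in 6.57%, 5.77% and 7.73%.

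Motifs of other factors ran the opposite way. TGATAAG or AGATAAG, sites of GATA factors such as the haemocyte regulator Serpent, lay in 15.5% of Scr+Hth-only windows (70 of 453, interval 12.4 to 19.1%), in 8.95% of shared windows and in 6.12% of Dfd+Hth-only windows (381, interval 5.55 to 6.74%), with flanks at 4.17%, 4.78% and 3.93%. TGAGTCA, the site of AP-1, was in 4.42%, 2.96% and 2.46%. GAGAGAG, read by the GAGA factor Trl, was in 7.51% of Scr+Hth-only and 8.66% of shared windows but in 2.92% of Dfd+Hth-only windows, with flanks at 1.79%, 2.11% and 1.99%. In the strict classes it was in 3.61% of Scr+Hth-only windows (3 of 83, interval 1.24 to 10.1%) and 2.21% of Dfd+Hth-only windows (interval 1.76 to 2.76%), where the intervals overlapped. Base composition moved with the classes: G and C made up 39.9% of Dfd+Hth-only, 42.2% of shared and 45% of Scr+Hth-only windows. Among windows with 35 to 45% G and C, a limit chosen after this was seen, Hox cores were in 31.8%, 18.0% and 12.7% of Dfd+Hth-only, shared and Scr+Hth-only windows, and GATA motifs in 5.99%, 9.50% and 16.8%. The order of the classes was the same inside this band, and the part of composition in the other counts was not tested.

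The GATA matches of the Scr+Hth-only class are shown in the 3 widest strict regions that hold TGATAAG in the central 200 bp, on the same arms and away from untranslated exons, a choice made after the motif counts were seen. Capitals mark the same motifs as before, and the runs are 100 bases of dm6, plus strand.
near CG31174, chr3R:21869982-21870081: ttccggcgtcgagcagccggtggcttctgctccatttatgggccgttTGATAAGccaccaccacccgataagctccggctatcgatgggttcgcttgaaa
in Pfrx, chrX:19501389-19501488: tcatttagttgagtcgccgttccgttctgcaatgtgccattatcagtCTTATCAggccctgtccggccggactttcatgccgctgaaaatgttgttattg
in kirre, chrX:3131277-3131376: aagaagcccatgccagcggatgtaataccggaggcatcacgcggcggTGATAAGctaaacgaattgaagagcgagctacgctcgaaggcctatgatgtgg

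None of these runs held a Hox core or TGATTAAT. The first region, intergenic beside CG31174, and the second, in an intron of Pfrx, met Hth, Exd+Hth, AbdA+Hth and AbdB+Hth, and the second also met Ubx+Hth. The third, over a coding exon of kirre, an adhesion protein of muscle founder cells, met Exd+Hth and no other Hox protein.

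**Figure D2:**
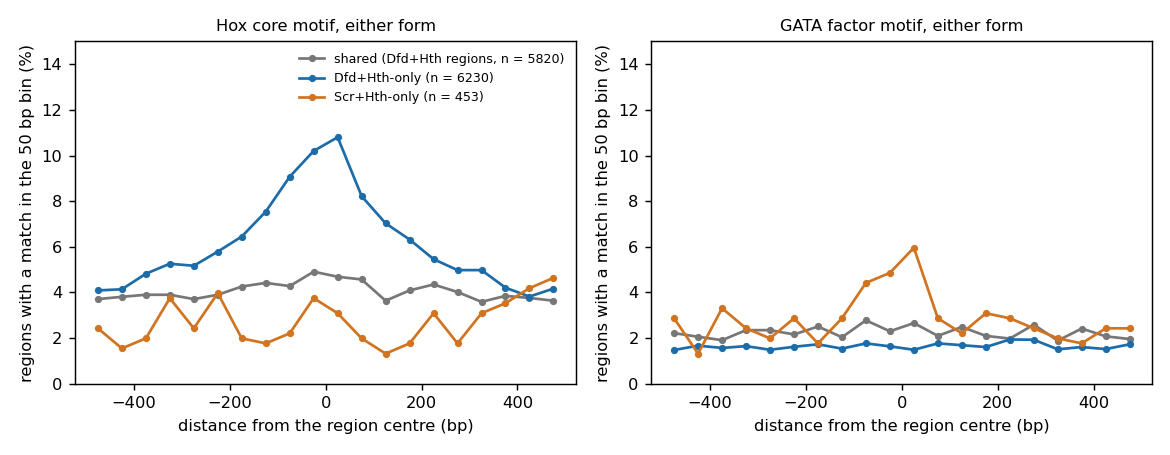
Share of regions with a motif match (vertical axis, % of regions in each 50 bp bin) by distance from the region centre (horizontal axis, bp), for the Hox core motifs (left) and the GATA-factor motifs (right). In Dfd+Hth-only regions the Hox core share rises from 4.09% at the left edge to 10.8% just right of the centre, and in Scr+Hth-only regions the GATA share reaches 5.96% there.

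By distance from the centre, the Hox core peak was central in Dfd+Hth-only regions. In bins of 50 bp the share rose from 4.09% at the left edge of a 1000 bp span to 10.2% and 10.8% on either side of the centre and fell to 4.17% at the right edge. Scr+Hth-only regions had no such peak, with 3.75% and 3.09% beside the centre and 2.43% and 4.64% at the edges. Their GATA share was 4.86% and 5.96% beside the centre and 2.87% and 2.43% at the edges, whereas that of Dfd+Hth-only regions was flat (1.64% and 1.49% beside the centre).

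The classes also differed in where they lay in genes. The centre was within 500 bp of an annotated transcript start in 45.8% of shared regions (interval 44.5 to 47.1%), in 34.4% of Dfd+Hth-only regions (interval 33.2 to 35.6%) and in 17.2% of Scr+Hth-only regions (interval 14.0 to 21.0%). The median distance to a start was 640.5, 1442 and 2180 bp. Centres fell in a 5' untranslated region in 18.9%, 14.1% and 2.65% of these classes. Introns held 52.6%, 47.3% and 61.1%, intergenic sequence 20.5%, 27.6% and 21.4%, coding exons 3.38%, 4.40% and 3.31%, and 3' untranslated regions 1.87%, 4.30% and 4.19%. In the strict classes the shares near a start were 40.0%, 24.4% and 7.23%, so all classes moved away from starts and kept their order. Over the chromosome arms the X held 18.2% of shared, 15.3% of Dfd+Hth-only and 17.2% of Scr+Hth-only regions, and 3R held 23.1%, 25.5% and 24.1%.

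Overlap with the cofactor sets was lowest in the Dfd+Hth-only class. Of shared regions 89.3% met the Exd+Hth list, of Scr+Hth-only regions 73.7% (334 of 453, interval 69.5 to 77.6%) and of Dfd+Hth-only regions 31.2% (1942 of 6230, interval 30.0 to 32.3%). With the 1e-10 lists of both proteins, and Exd+Hth kept at 0.01, the shares were 96.2%, 90% and 49.8%. For the Hth list at 0.01 the shares were 59.7%, 29.8% and 7.61%. The gap between the only classes, Dfd+Hth-only minus Scr+Hth-only, was -42.6 percentage points for Exd+Hth and -22.2 points for Hth. Median widths of these classes were 510 and 475 bp, and the part of width in the gaps was not tested. Counted from the other side, 79.2% of the 5367 Hth regions met a shared region, 8.89% a Dfd+Hth-only region and 2.57% a Scr+Hth-only region. Of the 10404 Exd+Hth regions the shares were 51%, 18.7% and 3.18%. With class regions cut to their central 200 bp, Exd+Hth met 84.8% of shared, 73.5% of Scr+Hth-only and 27.7% of Dfd+Hth-only regions. Hth met 48.1%, 28.7% and 6.77% in the same order.

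The 6 other Hox+Hth sets split into 2 directions. Pb+Hth, the Hox protein of the mouthparts, met 23.1% of Dfd+Hth-only regions (1439, interval 22.1 to 24.2%) and 2.65% of Scr+Hth-only regions (12, interval 1.52 to 4.57%). Lab+Hth, the most anterior Hox protein, met 16.0% and 8.39%. The 4 proteins of the trunk and abdomen leaned the other way: Antp+Hth met 2.79% of Dfd+Hth-only and 13.9% of Scr+Hth-only regions, Ubx+Hth 7.26% and 29.1%, AbdA+Hth 7.22% and 40.6%, and AbdB+Hth 27.8% and 49.4%. The Pb+Hth and Ubx+Hth lists, with 5692 and 5656 regions, leaned in opposite directions, and the part of list length in these leanings was not tested. Over the 6 sets the mean difference was -9.99 points (SD 20.3, n = 6), with 2 sets positive and 4 negative, and an exact two-sided sign-flip permutation test gave p = 0.25, where 0.031 is the smallest value it can reach. The test thus found no uniform lean over these 6 sets. They overlap each other and are not independent replicates, so p describes only how uniform the difference was over them. As a share of each other list, Dfd+Hth-only regions were met by 26.2% of Pb+Hth and 21.6% of Lab+Hth regions, by 6.11% of Antp+Hth, 8.03% of Ubx+Hth and 6.96% of AbdA+Hth regions and by 19.5% of AbdB+Hth regions, while Scr+Hth-only regions were met by 0.211% of Pb+Hth, 0.788% of Lab+Hth and 2.19 to 2.87% of the other 4.

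**Figure D3:**
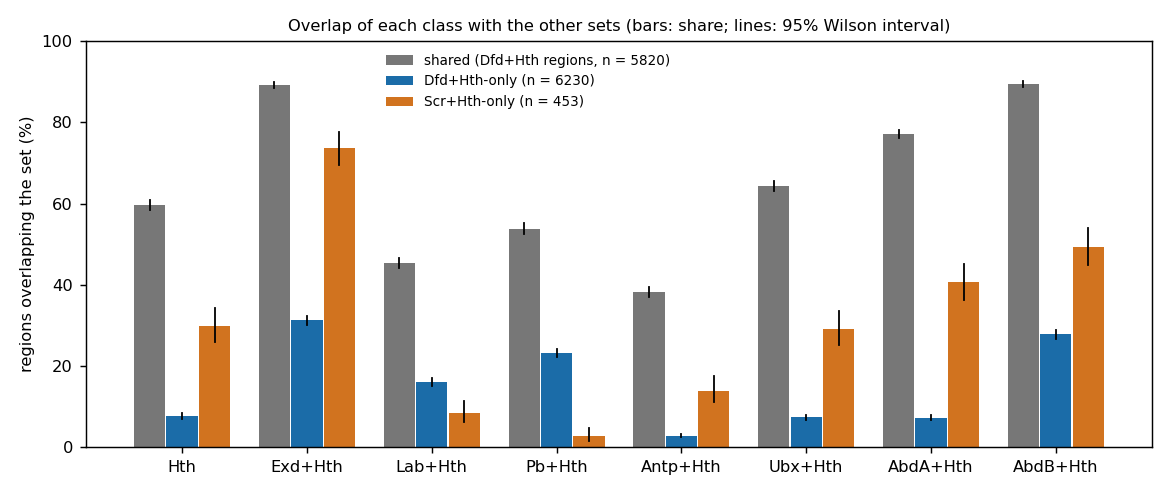
Share of each class (vertical axis, %) that overlapped the Hth, Exd+Hth and 6 other Hox+Hth lists, with lines for the 95% Wilson interval. The blue Dfd+Hth-only bar is above the orange Scr+Hth-only bar for Lab+Hth (16.0 against 8.39%) and Pb+Hth (23.1 against 2.65%) and below it for the other 6 sets.

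Regions were next grouped by which of the 6 other proteins they met. Among Dfd+Hth-only regions 1381 (22.2%) met Lab or Pb and none of the 4 trunk and abdominal proteins, 1421 (22.8%) met 1 or more of those 4 and neither Lab nor Pb, 456 (7.32%) met both kinds, and 2972 (47.7%) met none. Among Scr+Hth-only regions the counts were 18 (3.97%), 246 (54.3%), 25 (5.52%) and 164 (36.2%). Shared regions were mostly bound by both kinds, 3415 of 5820 (58.7%), and 254 (4.36%) met none. All 6 others were present on 1310 shared regions (22.5%), on 5 Dfd+Hth-only regions and on 1 Scr+Hth-only region. Shared regions that met both kinds had a median width of 1292 bp, and those that met none 527 bp. The part of width in these counts was not tested.

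These groups of Dfd+Hth-only regions differed in place and sequence. The 1421 that met trunk or abdominal proteins were near a start site in 73.8% (interval 71.5 to 76.0%), held a Hox core in 14.2% and met Exd+Hth in 56.0%. The 1381 that met Lab or Pb were near a start in 10.6% (interval 9.13 to 12.4%), held a Hox core in 44.1% (interval 41.5 to 46.7%) and met Exd+Hth in 19.9%. The 2972 that met none lay between them in both, with 28.3% near a start and a Hox core in 34.3%. In the 246 Scr+Hth-only regions that met trunk or abdominal proteins, by contrast, 17.1% (interval 12.9 to 22.3%) were near a start, 85.8% met Exd+Hth, 8.13% held a Hox core and 15% a GATA motif. By start site alone, Dfd+Hth-only regions within 500 bp held a Hox core in 18.3% and met AbdB+Hth in 50.7%, and those farther away in 38.6% and 15.8%. Pb+Hth went the other way, with 8.44% near a start and 30.8% farther away.

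**Figure D4:**
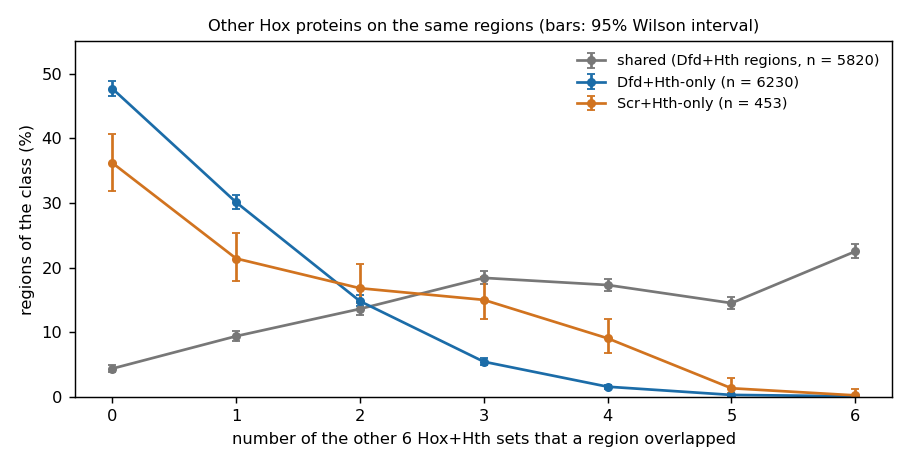
Share of regions of each class (vertical axis, %, with 95% Wilson intervals) by the number of the other 6 Hox+Hth lists that they overlapped (horizontal axis). Shared regions reach 22.5% at all 6, whereas 47.7% of Dfd+Hth-only and 36.2% of Scr+Hth-only regions met none.

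In the strict classes the opposite leanings of the 6 other Hox+Hth sets were larger. Pb+Hth met 38.9% of the 3310 strict Dfd+Hth-only and 6.02% of the 83 strict Scr+Hth-only regions, Lab+Hth 25.8% and 13.3%, Antp+Hth 4.11% and 27.7%, Ubx+Hth 6.22% and 47.0%, AbdA+Hth 7.43% and 57.8%, and AbdB+Hth 27.2% and 63.9%. Hox cores were in 38.2% of the strict Dfd+Hth-only windows and in 10.8% (interval 5.81 to 19.3%) of the strict Scr+Hth-only windows. Dfd+Hth-only regions that did not reach 1e-10 held a Hox core in 27% of windows, which was still above the 10.8% of the flanks.

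Binding of the same protein without Hth was compared as well. The list of Dfd without Hth met 87.1% of shared regions, 33.6% of Dfd+Hth-only and 7.73% of Scr+Hth-only regions. The list of Scr without Hth met 90%, 13.9% and 41.5%. Of these 2 lists, that of its own protein met each only class more often. AbdB without Hth met 33.4% of Dfd+Hth-only regions, close to the share of Dfd, and 46.8% of Scr+Hth-only regions (interval 42.3 to 51.4%), which overlapped the interval of Scr (37.1 to 46.1%). Of the Dfd+Hth-only regions 866 were bound by Scr when Hth was not supplied. In the strict classes Dfd without Hth met 54.2% of Dfd+Hth-only regions and Scr without Hth met 65.1% of Scr+Hth-only regions. Pb without Hth, like Pb+Hth, met more Dfd+Hth-only (22.4%) than Scr+Hth-only regions (1.77%), and AbdA without Hth fewer (5.78% and 30.5%).

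The Dfd and Scr genes, neighbours in the Antennapedia complex on 3R, carried regions of both only classes. Regions over exons carried on the plasmids were taken out by the authors. Dfd+Hth regions over Dfd exons and Scr+Hth regions over Scr exons can therefore be missing here. The part of this in the only classes at these genes was not tested. In the embryo Dfd is known to maintain its own expression through enhancers of its own gene. At Dfd (chr3R:6791836-6802428, plus strand) shared regions lay over the start (6791485 to 6791895) and in the intron (6796571 to 6797346 and 6797914 to 6799672). Both intronic regions met Hth, Exd+Hth and all 6 other Hox+Hth lists. A Dfd+Hth-only region of 1046 bp upstream (6787052 to 6788097, in the 1e-10 list) was also met by Lab+Hth and Pb+Hth, and a second of 662 bp (6789652 to 6790313) by Pb+Hth. Another lay downstream (6806624 to 6806989). A Scr+Hth-only region of 562 bp in the intron (6795370 to 6795931, strict class) met Exd+Hth and Lab+Hth, and another of 263 bp lay just past the end of the gene (6802526 to 6802788) and met no other list.

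At Scr (chr3R:6823120-6849981, minus strand) both proteins had regions within 500 bp of an annotated start site. A Scr+Hth-only region of 470 bp over the first base of the gene (6849865 to 6850334, centre 119 bp from a start site) was also met by Exd+Hth, Antp+Hth, Ubx+Hth, AbdA+Hth and AbdB+Hth, and 3 strict Dfd+Hth-only regions lay in introns (6829722 to 6830640, 6831824 to 6832632 and 6832890 to 6833470), of which the middle was met by Pb+Hth and the outer 2 by no other list. The last of these 3 had its centre 183 bp from a start site inside the gene, and the shared region (6848506 to 6849036), also intronic, 266 bp from one. At hth (3R), 8 shared regions and 1 Dfd+Hth-only region (10572716 to 10573369) were all intronic, with no Scr+Hth-only region. Both plasmids carried hth, and regions over plasmid-borne exons had been taken out. The lack of exonic regions at hth can therefore not be read as a result. The central 100 bases around a Hox core match are given for the Dfd+Hth-only regions that held one at these loci, both chosen after the values were seen (dm6, plus strand, capitals as before).
upstream of Dfd, chr3R:6789917-6790016: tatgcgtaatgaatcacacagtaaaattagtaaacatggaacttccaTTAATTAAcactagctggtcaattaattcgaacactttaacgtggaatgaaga
Scr intron, chr3R:6832144-6832243: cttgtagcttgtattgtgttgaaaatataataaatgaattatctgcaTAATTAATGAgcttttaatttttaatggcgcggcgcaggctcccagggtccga

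**Figure D5:**
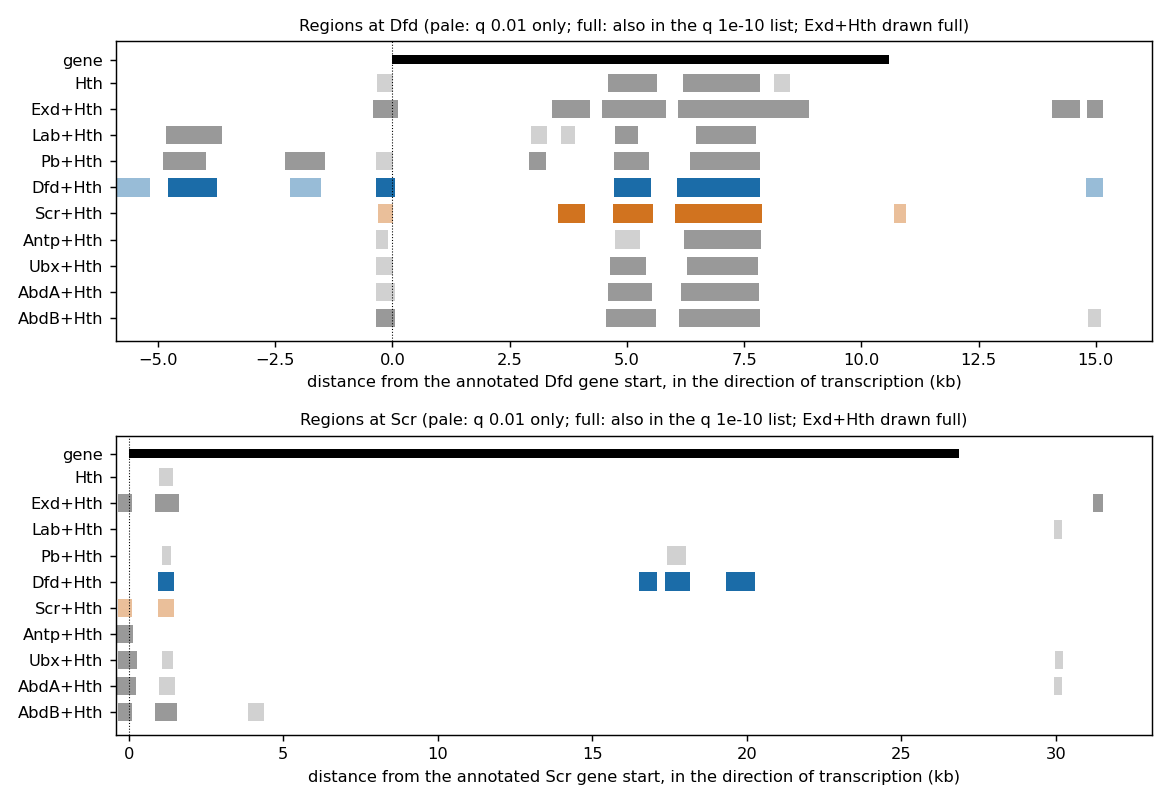
Listed regions at Dfd (top) and Scr (bottom) by distance in kb from the annotated gene start, in the direction of transcription, 1 row per set, with Dfd+Hth in blue and Scr+Hth in orange. At Dfd the regions well upstream of the start occur in the Lab+Hth, Pb+Hth and Dfd+Hth rows. At Scr the row of Dfd+Hth has 3 Dfd+Hth-only regions and 1 shared region, all intronic. The region over the start of Scr is in the rows of Exd+Hth, Scr+Hth, Antp+Hth, Ubx+Hth, AbdA+Hth and AbdB+Hth.

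Ranked by width, since the lists give no height, the leading strict regions were as follows. The widest Dfd+Hth-only regions lay in an intron of kuz, a metalloprotease of Notch signalling (chr2L:13585590-13588972, 3383 bp), beside CG42808 (3009 bp) and over the 5' untranslated region of Drip, an aquaporin (2918 bp), and all 3 met Pb+Hth and AbdB+Hth. The widest Scr+Hth-only regions lay in an intron of prage (chrX:1824282-1825296, 1015 bp), in the 3' untranslated region of Cdc50 (893 bp) and in an intron of Nedd4, a ubiquitin ligase (chr3L:17531506-17532353, 848 bp), and all 3 met Exd+Hth. The widest shared regions lay in introns of NK7.1, a homeobox gene (9390 bp), shn, a cofactor of Dpp signalling (6763 bp), and px (6521 bp), and met all 6 other Hox+Hth lists.

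Of 13945 protein-coding genes, 4873 (34.9%) had a shared region in the gene or within 1 kb, 5135 (36.8%) a Dfd+Hth-only region and 419 (3.0%) a Scr+Hth-only region. Of the 419 genes with a Scr+Hth-only region 259 (61.8%) also had a Dfd+Hth-only region, and only 73 (17.4%) had no Dfd+Hth region of any kind. Of the 5135 with a Dfd+Hth-only region 3062 (59.6%) had no Scr+Hth region. Length moved with these counts: the median gene was 2166 bp, that with a Dfd+Hth-only region 3122 bp and that with a Scr+Hth-only region 14426 bp, and the part of length was not tested. The most Dfd+Hth-only regions were at Svil (19), a villin-like actin-binding protein, bun (16), a TSC-22 family transcription regulator, pyd (15), a junction scaffold, and Fur1, a furin protease, and kuz (14 each), genes of 89273 to 125628 bp. They also had 12, 28, 10, 3 and 9 shared regions, and 2, 3, 2, 1 and 0 Scr+Hth-only regions, in the same order. The most Scr+Hth-only regions at any gene were 3, at Mob2, mam (a Notch coactivator), cv-c, prage, bun, MESR3, Usp10 and Mnr, each of which also had 2 to 16 Dfd+Hth-only regions.

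Among the 8 Hox genes (background 34.9%, 36.8% and 3.0% for shared, Dfd+Hth-only and Scr+Hth-only regions) 5 had a shared region, 3 a Dfd+Hth-only region (Scr with 3, pb and Abd-B with 1 each, those upstream of Dfd lying beyond 1 kb) and 2 a Scr+Hth-only region (Dfd with 2, Scr with 1). Antp had 3 shared regions and Ubx 1, and lab and abd-A had no region. The counts at Dfd and Scr are without regions over plasmid-borne exons. The median length of the 8 Hox genes was 30563 bp, against 2166 bp for all genes. The part of either in these counts was not tested. Of the 4 neighbours in the complex (zen, zen2, bcd, ftz) only bcd had a region, which was shared. The 4 TALE homeobox genes each had a Dfd+Hth-only region and none had a Scr+Hth-only region, with exd, the gene of the cofactor, in the strict class. The near-identical neighbouring genes achi and vis had 1 shared and 1 Dfd+Hth-only region each. Their margins of 1 kb overlap, so the same region can be counted at both. Over all genes 36.8% had a Dfd+Hth-only and 3.0% a Scr+Hth-only region, so a count of 0 of 4 for the latter is at the background.

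Of 25 head and gnathal patterning genes 10 had a shared region (background 34.9%), 8 a Dfd+Hth-only region (background 36.8%), 1 a Scr+Hth-only region (background 3.0%) and 12 none. The bound ones were led by cnc, a selector of the mandibular segment, with 11 shared, 7 Dfd+Hth-only and 5 strict Dfd+Hth-only regions. For ct, a homeobox gene of sense organs, these counts were 5, 6 and 4. Strict regions were counted apart from those at 0.01, since a strict region can lie inside a wider shared region. The homeobox gene al had 2 Dfd+Hth-only regions, 1 strict, and no shared region. Ser, a Notch ligand, had 1 of each class, and bowl had a strict Scr+Hth-only region that lay inside a wider shared region of the 0.01 list. The eye genes toy and ey had 2 regions each and disco-r had 2 shared ones, while Dll, ems, oc, so and Optix had none. The median length of this list was 11247 bp, well over the 2166 bp of all genes, and the part of length in its counts was not tested.

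Of 17 genes listed for the salivary gland or its control 7 had a shared region, 7 a Dfd+Hth-only region and 2 a Scr+Hth-only region. The 7 with none included fkh, which Scr activates in the embryonic gland, sage and hkb. Over all genes the shares were 34.9%, 36.8% and 3.0%, so the shared and Dfd+Hth-only counts were near the background. Of the 7 holders of a Dfd+Hth-only region 6 also had a strict Dfd+Hth-only region. The nuclear-positioning gene klar had 13 Dfd+Hth-only, 1 Scr+Hth-only and 6 shared regions, with 10 strict Dfd+Hth-only and 1 strict Scr+Hth-only region. The apical polarity gene crb had 6 Dfd+Hth-only regions and no shared region. Papss, which makes the sulfate donor of the secretory pathway, and CrebA, a regulator of secretory genes, had 3 Dfd+Hth-only regions each. The sulfotransferase gene pip had 2. The gene of the apical-constriction ligand fog had 3, with 2 Scr+Hth-only and 5 shared regions. The listed genes trh, eyg and tsh had 1 shared region each and rib 1 Dfd+Hth-only region. The median length of this list was 10159 bp, against 2166 bp for all genes, and the part of length was not tested.

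Of 15 segmentation genes 8 had a shared, 5 a Dfd+Hth-only and 2 a Scr+Hth-only region (background 34.9%, 36.8% and 3.0%). The median length of this list was 6652 bp, against 2166 bp for all genes, and the part of length in its counts was not tested. The homeobox gene inv had 4 Dfd+Hth-only and 3 strict Dfd+Hth-only regions, and its partner en had 1 Dfd+Hth-only region. The Hedgehog receptor gene ptc had 2 Scr+Hth-only, 1 strict Scr+Hth-only and 1 Dfd+Hth-only region beside 3 shared ones. The gene of its ligand, hh, had 1 Scr+Hth-only and 3 shared regions. The paired-type gene gsb had 1 strict Dfd+Hth-only region, hry had 1 that lay inside a wider shared region, and opa and wg had 1 shared region each.

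Of 15 haemocyte genes 9 had a shared, 7 a Dfd+Hth-only and 3 a Scr+Hth-only region, against 34.9%, 36.8% and 3.0% of all genes. The median length of this list was 13948 bp, against 2166 bp for all genes, and the part of length in its counts was not tested. The GATA-factor gene srp had 7 shared, 1 Dfd+Hth-only and 1 Scr+Hth-only region, and ush, its cofactor, had 20, 3 and 2. The receptor gene Pvr had 4 shared regions and 1 strict Dfd+Hth-only region, Ppn, of the extracellular matrix, 2 shared and 1 strict Dfd+Hth-only region, and the phagocytosis receptor eater 1 strict Dfd+Hth-only region. The collagen gene vkg had 4 shared regions, Hml and gcm2 had 2 each, and lz had 2 Dfd+Hth-only regions.

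All 10 ecdysone response genes, whose median length was 63040 bp, had a shared region, 7 a Dfd+Hth-only and 4 a Scr+Hth-only region (background 34.9%, 36.8% and 3.0% of genes with a median length of 2166 bp). The nuclear receptor gene Eip75B led, with 23 shared, 9 Dfd+Hth-only and 2 Scr+Hth-only regions, followed by the ETS gene Eip74EF with 13, 6 and 0. The nuclear receptor genes EcR and ftz-f1 had 11, 4 and 0 and 9, 3 and 2. Eip78C had 2, 5 and 1, and Eip93F 1, 3 and 1. Of 14 genes of the EGF receptor and JNK pathways 13 had a shared, 10 a Dfd+Hth-only and 4 a Scr+Hth-only region, against the same background, with a median length of 12247.5 bp. The receptor gene Egfr was the exception, with 3 Dfd+Hth-only regions and no shared one. The ETS gene pnt had 17 shared and 2 Dfd+Hth-only regions, and sty and puc, inhibitors of the pathways, 8 and 1 each. Shared, Dfd+Hth-only and Scr+Hth-only counts were 7, 1 and 1 at aop and 8, 2 and 1 at the AP-1 gene kay. A strict Scr+Hth-only region was also counted at kay. The ligand genes spi and egr had 3 and 2 shared regions, with 1 Dfd+Hth-only region at spi and 1 Scr+Hth-only region at egr, and the kinase gene bsk had 2 and 1.

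Of 7 cell death genes 4 had a shared and 2 a Dfd+Hth-only region (background 34.9% and 36.8%). Dfd is known to activate the death gene rpr at segment borders of the embryonic head, and rpr had no region here, like grim and skl. The inhibitor gene Diap1 had 4 shared regions, hid 2 shared and 1 Dfd+Hth-only region, and the caspase genes Dronc 1 shared and Drice 1 shared and 1 strict Dfd+Hth-only region. Of 12 neural genes (neuronal genes and the glial gene repo) 5 had a shared, 4 a Dfd+Hth-only and none a Scr+Hth-only region (background 34.9%, 36.8% and 3.0%). The glial gene repo was among the 4, and elav had 2 strict Dfd+Hth-only regions beside 2 shared ones. The median length of this list was 20756 bp, against 2166 bp for all genes, and the part of length was not tested.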

How the data were processed

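Chromatin from anti-GFP ChIP was sequenced by the authors, aligned with Bowtie 1.2.2 to dm6 and called with MACS2 2.1.1.20160309 at q-values of 0.01 and 1e-10, per the submitters' processing notes and the study's methods. The deposited lists are the authors' union, per group, of overlapping regions found in both replicates, with chromosome, start and end and no signal.

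The deposited region lists were read with Python 3.11.15 (numpy 2.4.6, scipy 1.17.1, matplotlib 3.10.9), and overlaps, Wilson intervals (95%), Jaccard indices and motif counts were computed with scripts checked on simulated intervals, which recovered 9 of 9 planted values. Positions came from Ensembl release 115 (BDGP6.54, the coordinates of dm6), and no region passed the end of an arm. Motifs were searched on both strands in central windows of 200 bp, with flanks 1000 bp away as background. Of 132 gene list entries 131 matched a protein-coding gene, 1 of them through a RefSeq synonym.

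The regions and gene lists were chosen with earlier results of these data known. Named regions are the 3 widest strict regions of each class and the 3 widest with TGATTAAT outside 2R. Named genes are list members with a strict region of 1 protein or both only classes, up to 4 others per list with the most regions, the 5 genes with the most regions of each only class, and Dfd, Scr and hth. Alternatives were the 1e-10 lists, strict classes, an overlap of 50% of the smaller region, central windows, other distances to starts and genes, and leaving out single sets or the plasmid-borne genes. Some list genes with no region are also named for their known roles, outside the rule, after their values were seen.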

Additional observations from a re-analysis of the deposited data

Results flagged for a closer look

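The share of regions that overlapped no other Hox+Hth list was 24.7% in Dfd+Hth (2972 of 12050), against 7.96% in AbdB+Hth, the next of the 8 lists, and 2.49% in Scr+Hth. The gap to the next list was 0.704 of the whole range, over the limit of 0.53 for 8 values. Of 7 such comparisons this was the only one set apart. For independent values chance sets apart about 1 in 20 comparisons. These lists overlap each other, so that rate cannot be applied here. Dfd+Hth was also the longest list with 12050 regions, and the part of its length in this share was not tested.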

How the results depend on the processing

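With the q 1e-10 lists the share of Dfd+Hth regions without Scr+Hth was 62.4%, the Jaccard index 0.379, and the Dfd+Hth-only minus Scr+Hth-only differences were 21.7 points near a start site and -30.5 points for Hth. In the strict classes the shares were 37.0% (Dfd+Hth) and 2.19% (Scr+Hth), with differences of -37.3 points for Hth and -53.1 points for Exd+Hth. Dfd+Hth at 1e-10 against Scr+Hth at 0.01, chosen after seeing the data, gave 37.0% and 18.6%. Central 200 bp windows gave 64.4% and 35% and a Jaccard index of 0.201. TGATTAAT over whole regions differed by 6.63 points, and its difference in the strict classes (1.74 points, interval -5.24 to 4.80) and in 100 bp windows (1.29, interval -0.286 to 2.13) had an interval across 0. Protein-coding genes with a shared region numbered 4873, with 2631 in the 1e-10 lists and 7485 with 5 kb to either side of a gene. Genes with a Scr+Hth-only region numbered 419, with 240 and 747 under these settings, and those with a Dfd+Hth-only region rose from 5135 to 8200 with 5 kb. The test over the 6 other sets gave an exact permutation p of 0.125 to 0.5 under its alternatives, and with 5 sets it cannot pass 0.05. Under the alternatives run, no difference between the only classes named here changed sign, but the order of other classes did for TGATTAAT: shared regions (12.7%) were above Dfd+Hth-only regions (11%) over whole regions, and in the strict classes Scr+Hth-only (4.82%, interval 1.89 to 11.7%) was above shared (2.73%, interval 2.24 to 3.34%). GAGAGAG fell to 3.61% of strict Scr+Hth-only windows. No paired analysis was possible because each list combines both replicates of a group, and no replicate could be left out for the same reason.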
